A study of Mus musculus with 8 samples.

Results

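The 30 genes described here encode the machinery that receives and moves glutamate in the brain: 4 AMPA receptor subunits, 7 NMDA receptor subunits, 5 kainate receptor subunits, 1 delta receptor, 7 metabotropic receptors, 3 vesicular transporters and 3 plasma membrane transporters. They were taken by gene symbol, from a list drawn up with earlier results of these data known. An array gene was accepted where a probe set carried that symbol alone, which held for 27 of the 30, among 18193 genes on the array. Each gene was represented by its probe set with the highest mean signal over the arrays, and the other probe sets of the gene served as a check (58 probe sets in all). Grin1, Grm6 and Slc17a8 had no such probe set and were not analysed here.

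RNA of the telencephalon of mice with mutations of Dlx1 and Dlx2, homeobox transcription factors of the GABAergic lineages of the ventral forebrain, was measured on 8 arrays. The 4 groups held 2 arrays each: basal ganglia (BG) of -/- mice, BG of +/- mice, cortex (Ctx) of -/- mice and Ctx of +/- mice. The comparison group in each region was therefore +/- and not +/+, since the +/- animals carry the mutation too. The labels give no age, sex, strain or allele. Nor do they say whether the 2 arrays of a group are separate animals, so every p-value here reflects array-to-array spread, and that spread may be technical. The labels also name blood and adrenal medulla as the source beside the brain region. The cortical marker Neurod6 had signals of 4490 and 4566 in Ctx -/- and 4976 and 4119 in Ctx +/- arrays, against 775 and 844 in BG -/- and 493 and 592 in BG +/- arrays.

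Glutamate is the main excitatory transmitter of the brain. Vesicular transporters load it into synaptic vesicles, and plasma membrane transporters clear it after release. AMPA, NMDA and kainate receptors are ion channels assembled from several subunits, while metabotropic receptors act through G proteins. In the forming telencephalon the cortex makes mainly glutamatergic neurons and the basal ganglia mainly GABAergic neurons, but neurons of both kinds carry glutamate receptors.

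The deposited values are summarised signals on a linear scale. Array medians lay between 38.0 and 51.6, and the arrays shared a mean of 150.001 once the top and bottom 2% of signals were trimmed. Correlations of log2 signals were 0.971 to 0.983 between arrays of 1 group and 0.905 to 0.976 between arrays of different groups. The summed Dlx1 and Dlx2 signal was 12.2 to 24.1 in BG -/- against 1524 to 1590 in BG +/- arrays, and 8.43 to 14.4 in Ctx -/- against 192 to 194 in Ctx +/- arrays. The signal of Xist, which is transcribed from the inactive X chromosome, was 2340 and 2519 in BG -/- against 34.2 and 42.4 in BG +/- arrays, and 2457 and 2363 in Ctx -/- against 62.6 and 67.5 in Ctx +/- arrays. Sex and genotype cannot be told apart in these arrays.

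Dlx proteins bind DNA through a homeodomain, and homeodomains of this class recognise the letters TAATTA or the core ATTA. The 250 bases before the annotated start sites were searched for TAATTA and for ATTA on both strands, with overlapping matches counted and with ATTA found inside each TAATTA. RefSeq start sites (build GRCm38.p6) were given for 21 of the 30 genes, with 26 windows among them. TAATTA occurred in 2 of these 26 windows (7.69%), against 4.84% of 32851 windows of all start sites. ATTA occurred in 9 of the 26 (34.6%), against 54.9% of all windows. The sequences below are those of Slc17a6, which rose in BG -/- arrays on both of its probe sets, and of Grik3, which fell there. Slc17a6 has one start site window at chr7:51621580-51621829 and another at chr7:51624387-51624636, and Grik3 has its window at chr4:125490446-125490695, all on the plus strand and written 5′ to 3′. Capitals mark ATTA or its reverse complement TAAT.
Slc17a6, start site 1: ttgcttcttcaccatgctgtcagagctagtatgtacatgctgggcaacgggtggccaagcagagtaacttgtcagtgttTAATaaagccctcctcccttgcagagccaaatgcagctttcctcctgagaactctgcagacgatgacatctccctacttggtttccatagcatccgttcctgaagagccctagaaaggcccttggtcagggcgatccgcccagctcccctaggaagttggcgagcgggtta
Slc17a6, start site 2: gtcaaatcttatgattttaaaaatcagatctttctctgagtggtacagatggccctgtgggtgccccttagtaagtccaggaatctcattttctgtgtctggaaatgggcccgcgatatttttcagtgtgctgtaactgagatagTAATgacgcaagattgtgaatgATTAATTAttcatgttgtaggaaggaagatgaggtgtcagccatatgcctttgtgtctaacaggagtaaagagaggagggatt
Grik3: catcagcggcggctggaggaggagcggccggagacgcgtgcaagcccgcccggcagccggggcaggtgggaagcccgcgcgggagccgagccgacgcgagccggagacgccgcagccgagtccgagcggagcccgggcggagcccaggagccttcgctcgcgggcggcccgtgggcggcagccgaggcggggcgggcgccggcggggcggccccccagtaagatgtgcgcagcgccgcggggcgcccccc
The window of Slc17a6 start site 2 held 1 TAATTA and 4 matches of ATTA, and that of start site 1 held 1 ATTA. The Grik3 window, with a GC content of 82.0%, held neither, and the windows of Gria2 and Gria4, which rose, held neither as well. No start site was given for Gria3 and Grm5, which rose too, so their windows were not searched. A match of letters is a description of the window and not a binding site.

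In the basal ganglia, 6 of the 25 glutamate genes tested differed between genotypes. Slc17a6, Gria2, Gria3, Gria4 and Grm5 were higher in BG -/- than in BG +/- arrays, and Grik3 was lower. The test was limma on log2(signal + 16), with Benjamini-Hochberg adjustment over 31526 probe sets and a threshold of 0.05, and all log2 changes below are on that scale, which understates the change of weak genes. The 5 that rose can be set beside 4.76% of 13627 genes tested that rose in this comparison, and the 1 that fell beside 3.05%. The 25 genes had a median log2 change of 0.39, against -0.08 over all genes tested. An unadjusted p under 0.05 was found for 9 of the 25, and for 3670 of the 13627 genes tested. All 6 kept their direction when any 1 array was left out, but the calls rest on every BG array: none of the 6 passed without BG -/- replicate 2, BG -/- replicate 3 or BG +/- replicate 2, and only Grik3 passed without BG +/- replicate 3. Without either Ctx -/- array, 2 of the 6 passed (Slc17a6 and Grik3). In bulk tissue, fewer cells of a type and less RNA per cell cannot be told apart, which holds for every result below.

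Slc17a6 encodes VGLUT2, a vesicular glutamate transporter used by many neurons outside the cortex and by immature cortical neurons. Its signal was 505 and 485 in BG -/- arrays, against 230.0 and 236 in BG +/- arrays. The genotypes were far apart beside the spread within each pair of arrays. The change was 1.04 ± 0.16 on the log2 scale (SE, limma), or 2.05-fold with a 95% interval of 0.66 to 1.41 in log2, at an adjusted p of 0.0141. A separate Slc17a6 probe set rose by 1.01 ± 0.15 (SE, adjusted p = 0.0130, limma). Slc17a7, which encodes VGLUT1, the transporter of mature cortical neurons, was weak everywhere, at 17.6 and 24.5 in BG -/- and 4.76 and 13.4 in BG +/- arrays. Its difference of 0.58 ± 0.20 (SE) did not pass (adjusted p = 0.116, limma).

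Some markers of neighbouring brain were higher in BG -/- arrays, as Slc17a6 was. Of 15 genes listed as markers of the diencephalon and other neighbouring brain, 14 were measured and 11 tested. Otp, Lhx9 and Otx2 were higher in BG -/- arrays (3 of 11, none lower). The other 8 did not pass. Of the 11, 8 had a positive and 3 a negative change, with a median of 0.25 in log2. Otx2 was also listed as a choroid plexus marker, and 1 of the 7 genes tested in that list was higher. Otp, a homeobox gene of the hypothalamus, had signals of 440 and 493 in BG -/- against 218 and 212 in BG +/- arrays (log2 change 1.06 ± 0.15 SE, adjusted p = 0.0127, limma). Lhx9 had 219 and 215 in BG -/- against 143 and 136 in BG +/- arrays. The summed signal of the 14 markers was 1235 to 1263 in BG -/- against 707 to 788 in BG +/- arrays. Of 12 cortical glutamatergic markers tested, 4 had a positive and 8 a negative change. None passed as higher, and Fezf2, Bcl11b, Neurog1 and Neurog2 passed as lower. Neurod6 and Neurod1 were higher on both BG -/- arrays without passing (0.57, adjusted p = 0.0635, and 0.50, adjusted p = 0.0879, limma). The summed signal of the list was 4173 to 4261 in BG -/- against 5058 to 5080 in BG +/- arrays. Its direction turned without Bcl11b, a gene that was higher in BG +/- than in Ctx +/- arrays. The other 11 markers summed to 2532 to 2590 in BG -/- against 2387 to 2400 in BG +/- arrays, a sum taken after the values were seen. Neurod6 alone, with 775 and 844 in BG -/- against 493 and 592 in BG +/- arrays, had a wider gap than this sum. The turned sum therefore does not describe the cortical markers as a set. General neuronal markers included 3 of 14 that were higher, with sums of 30024 to 31269 in BG -/- against 28546 to 29650 in BG +/- arrays.

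Markers of further cell classes moved in the same comparison. GABAergic neurons are the class whose development depends on Dlx genes. Their markers included 6 of 12 that were lower and 2 that were higher, with sums of 6949 to 7160 in BG -/- against 8659 to 9386 in BG +/- arrays. This list holds the mutated genes Dlx1 and Dlx2, which are 2 of the 6 that were lower. Those 2 genes alone summed to 12.2 to 24.1 in BG -/- against 1524 to 1590 in BG +/- arrays. Much of the fall in the GABAergic sum is therefore that of the mutated genes themselves. Red blood cell markers, of which 1 of 5 tested was lower, summed to 3161 to 3328 in BG -/- against 6061 to 6365 in BG +/- arrays. Oligodendrocyte lineage markers, of which none of 6 tested passed by limma (2 had an unadjusted p under 0.05), summed to 1438 to 1560 in BG -/- against 1101 to 1162 in BG +/- arrays. The part of any of these cells in the changes of Slc17a6 and the other 5 genes was not tested.

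**Figure D1:**
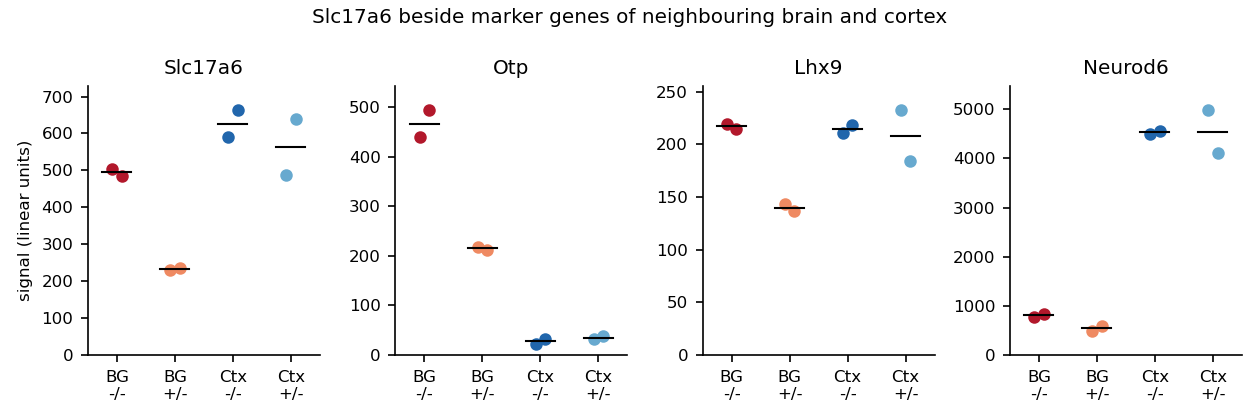
Signal on each array (linear units, points) with the mean of the 2 arrays of a group (line) for Slc17a6, for Otp and Lhx9, which mark neighbouring brain, and for the cortical marker Neurod6. All 4 genes were higher on both BG -/- arrays than on both BG +/- arrays. The BG differences of Slc17a6, Otp and Lhx9 passed the test and that of Neurod6 (0.57 on the log2 scale, adjusted p = 0.0635, limma) did not. Otp and Lhx9 do not stand for their list either: of 11 markers of neighbouring brain tested, 3 passed as higher and 8 did not pass. Neurod6 does not stand for its list: of 12 cortical markers tested, 8 had a negative change in BG and 4 a positive one. No cortical marker passed as higher, and 4 passed as lower.

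Among the AMPA receptor subunits, 3 of 4 rose in BG -/- arrays. Gria2 encodes the subunit that makes AMPA receptors impermeable to calcium after RNA editing. Its signal was 922 and 968 in BG -/- against 602 and 652 in BG +/- arrays, a log2 change of 0.58 ± 0.13 (SE, adjusted p = 0.0379, limma). The genotypes did not overlap on its other 2 probe sets either: one rose by 0.69 ± 0.15 (SE, adjusted p = 0.0356, limma) and the other differed by 0.39 without passing (adjusted p = 0.0833).

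Gria3 and Gria4 encode further pore-forming AMPA subunits. Gria3 had 135 and 183 in BG -/- against 72.3 and 83.1 in BG +/- arrays, and rose by 0.89 ± 0.19 (SE, adjusted p = 0.0351, limma). Both BG -/- arrays were above both BG +/- arrays, but a weaker Gria3 probe set overlapped between genotypes and did not pass (0.38 ± 0.39 SE, adjusted p = 0.568, limma). Gria3 lies on the X chromosome, where 58 of 445 genes tested (13.0%) were higher in BG -/- arrays, against 4.44% of 13139 autosomal genes. The part of sex in the Gria3 result was not tested. Gria4 had 276 and 287 in BG -/- against 181 and 190 in BG +/- arrays, and rose by 0.56 ± 0.13 (SE, adjusted p = 0.0473, limma). Its other 2 probe sets differed in the same direction, by 0.45 and 0.44, without passing. Gria1, the partner of Gria2 in many forebrain receptors, was lower without overlap, at 314 and 299 in BG -/- against 370 and 368 in BG +/- arrays, and did not pass (log2 change -0.26 ± 0.17 SE, adjusted p = 0.363, limma).

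Grik3, a kainate receptor subunit, was the member that fell. Its signal was 230 and 241 in BG -/- against 634 and 467 in BG +/- arrays. Both BG -/- arrays were below the lower BG +/- array, and the BG -/- level lay near that of the Ctx -/- arrays (265 and 265). The log2 change was -1.16 ± 0.17 (SE, adjusted p = 0.0126, limma), or 0.448-fold. A further Grik3 probe set was below the filter on low signals. Grik2, another kainate subunit, did not pass on its brighter probe set, at 233 and 236 in BG -/- against 146 and 184 in BG +/- arrays (0.48 ± 0.26 SE, adjusted p = 0.277, limma). A second Grik2 probe set passed, with 137 and 132 in BG -/- against 48.7 and 64.9 in BG +/- arrays (1.05 ± 0.15 SE, adjusted p = 0.0120, limma). Grik1, Grik4 and Grik5 did not pass, with log2 changes of 0.38, -0.04 and 0.03.

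Of 6 metabotropic receptors tested, Grm5 passed. It encodes mGlu5, a group I receptor that couples to phospholipase C. Its signal was 272 and 286 in BG -/- against 199 and 188 in BG +/- arrays, with no overlap, and the log2 change was 0.49 ± 0.11 (SE, adjusted p = 0.0419, limma). A weaker Grm5 probe set overlapped between genotypes (0.08 ± 0.19 SE, adjusted p = 0.820, limma). Grm3, a group II receptor found on both neurons and glia, had 173 and 168 in BG -/- against 87.9 and 129 in BG +/- arrays and did not pass (0.60 ± 0.21 SE, adjusted p = 0.119, limma). Grm2, Grm4, Grm7 and Grm8, receptors that inhibit adenylyl cyclase, differed by -0.23, -0.11, 0.30 and 0.18 in log2, and none passed.

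None of the 4 NMDA receptor subunits tested passed in the basal ganglia. Their log2 changes were 0.39 for Grin2b, 0.04 for Grin2d, 0.56 for Grin3a and 0.46 for Grin3b. The weaker Grin2b probe sets differed in sign, from 0.47 to -0.22, and none passed. Grin2a and Grin2c, subunits whose expression rises after birth in rodent brain, were below the filter in all 4 groups. The filter removed the 30% of probe sets with the lowest mean, which corresponds to a signal of about 16.3. The delta receptor gene Grid1 differed by -0.29 and did not pass. The plasma membrane transporters did not pass either: Slc1a1, the neuronal carrier, differed by 0.48, Slc1a2, the main carrier of astrocytes, by 0.40, and Slc1a3, the carrier of radial glia, by 0.04. Probe sets of each transporter disagreed in sign, and none passed. The weaker ones differed by -0.06 and -0.02 for Slc1a1 and by 0.50 and -0.51 for Slc1a2. Those of Slc1a3 ran from -0.04 to 1.48.

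**Figure D2:**
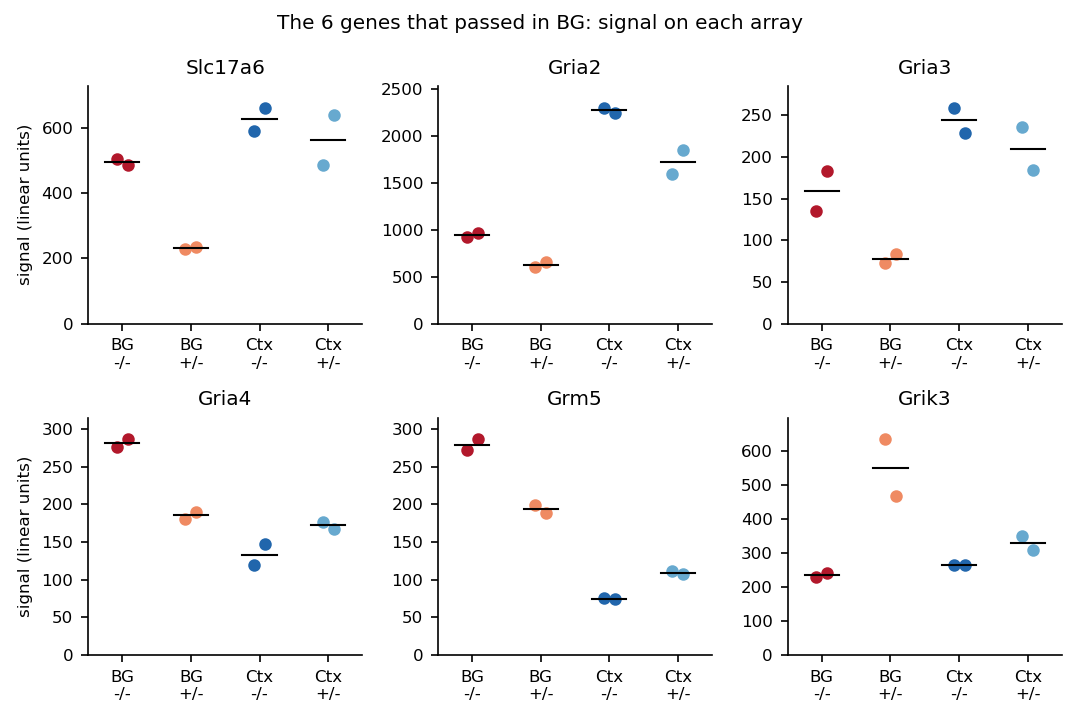
Signal on each array (linear units, points) with the mean of the 2 arrays of a group (line) for the 6 genes that passed between BG -/- and BG +/- arrays. Grik3 stood lower on both BG -/- arrays (230 and 241) and the other 5 genes higher.

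In the cortex, none of the 25 genes passed between Ctx -/- and Ctx +/- arrays by limma. An unadjusted p under 0.05 was found for 6 of the 25, and for 1172 of the 13627 genes tested. Few genes passed there at all: 0.0220% of the 13627 tested were higher and 0.183% lower. The median log2 change of the 25 was -0.17, against -0.03 over all genes tested. On the probe sets that represent the 25 genes, Grm5 had the smallest adjusted p (0.287, limma). Its signal was 75.4 and 74.2 in Ctx -/- against 112 and 107 in Ctx +/- arrays, lower without overlap, with a log2 change of -0.46 ± 0.11 (SE). Gria1 had 159 and 146 in Ctx -/- against 212 and 295 in Ctx +/- arrays (-0.66 ± 0.17 SE, adjusted p = 0.298, limma). A second Gria1 probe set had 117 and 113 in Ctx -/- against 229 and 214 in Ctx +/- arrays, a log2 change of -0.86 ± 0.12 that did not pass either (SE, adjusted p = 0.0764, limma). Gria1 was thus lower on both Ctx -/- arrays by each probe set.

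For Slc17a6 the cortical signals were 592 and 662 in Ctx -/- against 488 and 640 in Ctx +/- arrays. These overlap, and the 95% interval of the log2 change was -0.21 to 0.53. Gria2 had 2298 and 2244 in Ctx -/- against 1592 and 1848 in Ctx +/- arrays, a difference of 0.40 that did not pass (adjusted p = 0.379, limma). Its other 2 probe sets differed little, by 0.08 and -0.07 (adjusted p = 0.903 and 0.897, limma). Choroid plexus markers differed widely between these arrays, with a summed signal of 55.8 to 111 in Ctx -/- against 12166 to 14039 in Ctx +/- arrays. The GABAergic markers, which include Dlx1 and Dlx2, summed to 318 to 333 in Ctx -/- against 1879 to 2032 in Ctx +/- arrays. The part of either tissue in the cortical values of the glutamate genes was not tested.

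The difference between the genotype effects in the basal ganglia and in the cortex was tested directly. None of the 25 genes passed by limma, and 0.272% and 0.0660% of all genes tested passed as higher and lower. An unadjusted p under 0.05 was found for 6 of the 25, and for 2087 of the 13627 genes tested. The median of this difference was 0.40 in log2, against -0.02 over all genes tested. Grm5 came nearest, with a BG effect of 0.49 and a Ctx effect of -0.46, a difference of 0.96 ± 0.16 (SE, adjusted p = 0.0608, limma). The weaker Grm5 probe set had smaller effects, 0.08 in BG and -0.25 in Ctx (difference 0.33 ± 0.27 SE, adjusted p = 0.567, limma). Gria4 likewise had effects of opposite sign, 0.56 in BG and -0.34 in Ctx (difference 0.90 ± 0.19 SE, adjusted p = 0.0909, limma). The differences for Slc17a6 (0.88 ± 0.22 SE, adjusted p = 0.126, limma) and Grik3 (-0.87 ± 0.23 SE, adjusted p = 0.142, limma) did not pass. An effect that passed in the basal ganglia and not in the cortex is therefore not shown to differ between the regions for any of the 6 genes.

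**Figure D3:**
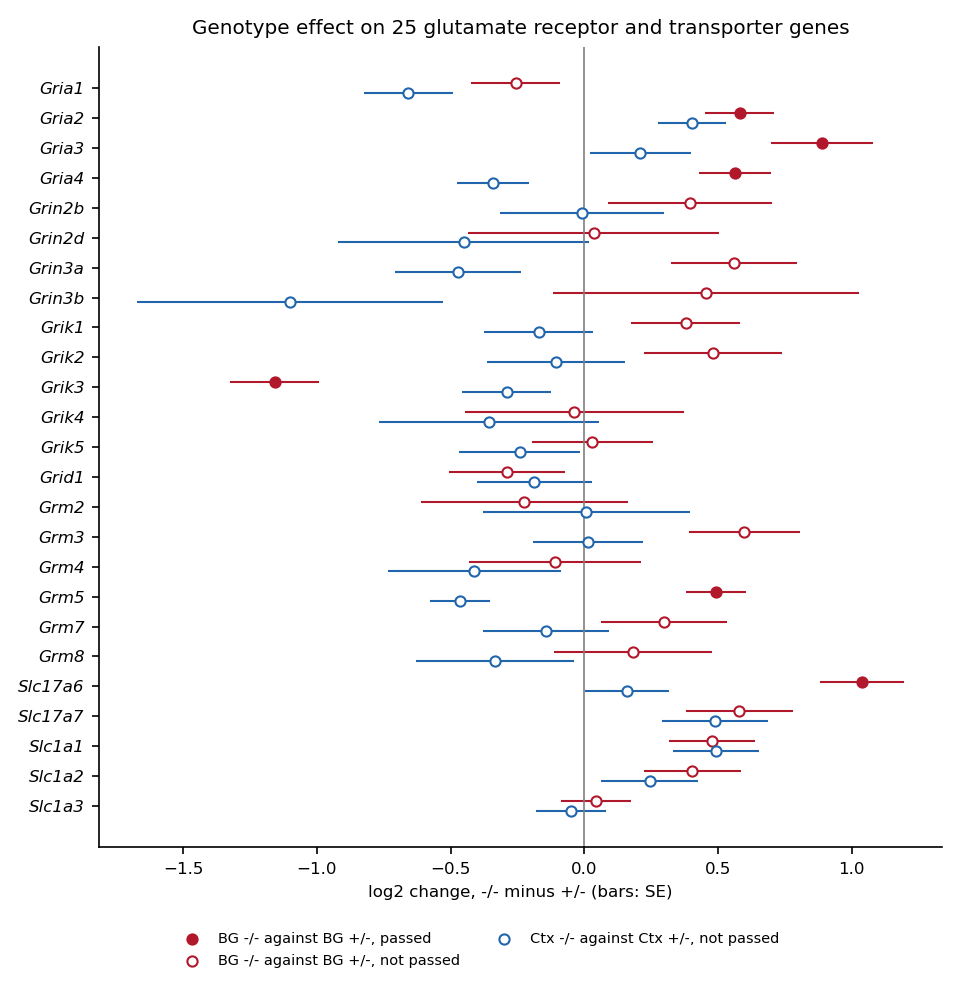
Log2 change between genotypes (-/- minus +/-, on log2 of signal + 16) of the 25 genes tested, in BG (red, upper of each pair) and in Ctx (blue, lower), with bars of 1 SE. Filled points passed and open points did not. The 6 filled points are all of BG, with Slc17a6 highest at 1.04 and Grik3 lowest at -1.16.

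The regions differed more than the genotypes. Between BG -/- and Ctx -/- arrays, 11 genes were higher and 1 lower in BG, where 11.4% and 7.25% of all genes were higher and lower. Between BG +/- and Ctx +/- arrays, 8 were higher and 4 lower, where 14.0% and 10.7% of all genes were. These counts include Grin3a, and without it 10 were higher and 1 lower in -/- arrays and 7 higher and 4 lower in +/- arrays. The medians of the 25 genes were 0.93 in -/- and 0.33 in +/- arrays, against 0.06 and 0.11 over all genes tested. Without BG -/- replicate 2, BG -/- replicate 3 or Ctx -/- replicate 2 the -/- comparison had 6 calls, and without Ctx -/- replicate 3 it had 7, in place of 12. Choroid plexus markers summed to 12166 to 14039 in Ctx +/- against 185 to 215 in BG +/- arrays. The part of this tissue in the +/- region differences and in the difference of genotype effects was not tested. Both region comparisons and both genotype comparisons share arrays, so their values are given side by side and not as separate evidence.

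Grin3a encodes an NMDA subunit that lowers calcium entry and is prominent in the young brain. Its signal was 153 and 124 in BG -/- against 0.583 and 2.39 in Ctx -/- arrays, and 74.3 and 105 in BG +/- against 13.5 and 3.93 in Ctx +/- arrays. The Ctx signals lay below the filter's level of about 16.3, and Grin3a was kept by the filter through the BG groups alone. The region difference is therefore a description, with no test, and its size depends on the offset and the other settings: it ran from 1.63 to 5.91 in -/- and from 1.08 to 3.41 in +/- arrays, in log2, over the alternatives run. Grin3b, Grik1, Grik4, Grm8 and Slc17a7 were above the filter's level in 3 of the 4 groups. The group below it was Ctx -/- for Grin3b, Grik1, Grik4 and Grm8, and BG +/- for Slc17a7.

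Most receptors that passed were higher in the basal ganglia. Grm7, a presynaptic group III receptor, had 220 and 228 in BG -/- against 41.4 and 19.7 in Ctx -/- arrays, and 202 and 159 in BG +/- against 36.3 and 31.8 in Ctx +/- arrays. Its log2 differences were 2.41 ± 0.23 and 1.97 ± 0.23 (SE, limma adjusted p = 0.00157 and 0.00259). Grik1, a kainate subunit, was higher by 2.17 in -/- and 1.62 in +/- arrays, and Grid1 by 1.29 and 1.40. The Grik1 signals in Ctx lay near the filter's level, at 8.62 and 22.1 in -/- and 19.4 and 17.5 in +/- arrays. The size of the Grik1 difference is therefore poorly determined. Over the alternatives run it went from 1.23 to 3.04 in -/- and from 0.87 to 2.22 in +/- arrays. Grm5 was higher by 1.70 ± 0.11 in -/- arrays (SE, adjusted p = 0.000447, limma) and by 0.74 ± 0.11 in +/- arrays (SE, adjusted p = 0.00575, limma). Slc1a2, the astrocytic transporter, was higher by 1.06 in -/- and 0.90 in +/- arrays. These 5 genes passed in both genotypes on the probe set that represents them, and the weaker Grm5 probe set passed in both too. A weaker Grik1 probe set passed in -/- arrays (1.02) and not in +/- arrays (0.12, adjusted p = 0.770, limma). A weaker Grid1 probe set passed in neither, with differences of 0.86 in -/- and 0.54 in +/- arrays. The weaker Slc1a2 probe sets tested were higher in BG without passing in either genotype.

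Gria2 was lower in the basal ganglia in both genotypes. Its log2 differences were -1.25 ± 0.13 in -/- arrays (SE, adjusted p = 0.00186, limma) and -1.43 ± 0.13 in +/- arrays (SE, adjusted p = 0.00104, limma), and all 3 of its probe sets passed in both. Slc17a6 was lower in BG +/- than in Ctx +/- arrays, with a log2 difference of -1.21 ± 0.16 (SE, adjusted p = 0.00347, limma). In -/- arrays, where its BG signals were 505 and 485 and its Ctx signals 592 and 662, the log2 difference was -0.33 ± 0.16 and did not pass (SE, adjusted p = 0.187, limma). Slc17a7 and Gria3 were also lower in BG in +/- arrays, with log2 differences of -0.75 and -1.26, while their differences of -0.65 and -0.58 in -/- arrays did not pass. Cortical glutamatergic markers were lower in BG in 11 of 12 tests in each genotype.

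Gria1, Grm3, Grm4 and Grm8 passed as higher in BG in -/- arrays, by 0.93, 0.80, 1.35 and 1.32 in log2, and their differences of 0.53, 0.22, 1.04 and 0.80 in +/- arrays did not pass. Gria4, with 276 and 287 in BG -/- against 119 and 147 in Ctx -/- arrays, also passed there (95% interval 0.68 to 1.32 in log2, adjusted p = 0.00484, limma), and its difference of 0.10 in +/- arrays did not. Grik3 and Grm2 passed as higher in +/- arrays, by 0.70 and 1.35, and their -/- differences of -0.16 and 1.12 did not pass. The change of a region difference with genotype is the same quantity as the difference of genotype effects above, in which no gene passed. Probe sets of 1 gene differed in places. A Gria4 probe set other than its brightest was higher in BG +/- than in Ctx +/- arrays by 1.41 (adjusted p = 0.00192, limma). A Slc1a3 probe set passed as lower there with a log2 difference of -2.10 (adjusted p = 0.0246, limma), while the brightest Slc1a3 probe set differed by -0.43 and did not pass. A second Grik2 probe set passed as lower in BG in +/- arrays (-0.84, adjusted p = 0.00984, limma), while the brighter one differed by 0.10. A weaker Grin2b probe set passed as higher in BG, by 0.73 in -/- and 0.46 in +/- arrays (adjusted p = 0.0143 and 0.0487, limma). The other Grin2b probe sets did not pass. Grin2b, Grin2d, Grin3b, Grik2, Grik4, Grik5, Slc1a1 and Slc1a3 passed in neither genotype on the probe set that represents them.

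**Figure D4:**
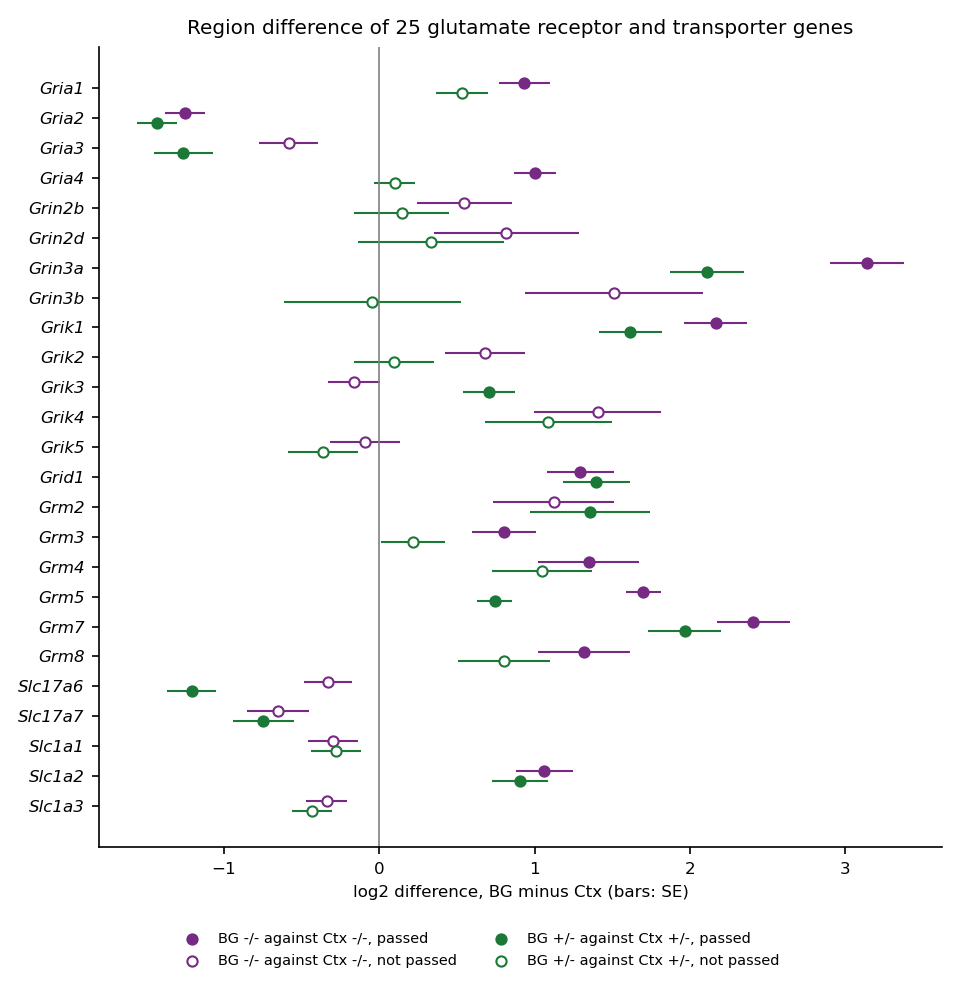
Log2 difference between regions (BG minus Ctx, on log2 of signal + 16) of the 25 genes tested, in -/- arrays (purple, upper of each pair) and in +/- arrays (green, lower), with bars of 1 SE. Filled points passed and open points did not. Grm7 lies far to the right in both genotypes (2.41 and 1.97) and Gria2 farthest to the left (-1.25 and -1.43). Grin3a is drawn too, but its Ctx signals were below the filter's level, so the size of its difference is not determined.

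Other genes of the glutamate synapse were counted beside the receptors. Of 17 auxiliary subunit genes tested in the basal ganglia, 2 were higher and none lower in BG -/- arrays, with a median log2 change of -0.10. Of 32 genes of the postsynaptic scaffold and of receptor trafficking, 3 were higher and 1 lower, with a median of 0.04. Of 11 genes of glutamate synthesis and recycling, none was higher and 1 lower, with a median of -0.03. Over all genes tested, 4.76% were higher and 3.05% lower in this comparison, so these small counts do not set the lists apart. Lin7c, a small scaffold protein with a PDZ domain, had 1500 and 1351 in BG -/- against 721 and 733 in BG +/- arrays (0.95 ± 0.13 SE, adjusted p = 0.0119, limma). Lrrtm2, a postsynaptic adhesion protein that binds neurexins, had 245 and 241 in BG -/- against 152 and 149 in BG +/- arrays (0.64 ± 0.11 SE, adjusted p = 0.0190, limma). Nlgn1, the neuroligin of excitatory synapses, rose by 0.65 ± 0.14 (SE, adjusted p = 0.0331, limma). Got2, the mitochondrial aspartate aminotransferase, had 808 and 769 in BG -/- against 1244 and 1207 in BG +/- arrays (-0.63 ± 0.12 SE, adjusted p = 0.0287, limma). In the cortex, limma passed none of the genes in these lists between genotypes. The smallest adjusted p there was 0.0843 (limma). An unadjusted p under 0.05 was found for 3 auxiliary genes and 1 scaffold gene, and for 1172 of the 13627 genes tested.

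Between regions, these lists split both ways. In -/- arrays 5 auxiliary genes were higher and 1 lower in BG than in Ctx, 7 scaffold genes were higher and 5 lower, and 2 synthesis genes were higher and 1 lower. In +/- arrays the counts were 5 higher and 3 lower, 5 higher and 9 lower, and 2 higher and 1 lower. The lists held 17, 32 and 11 genes tested. Over all genes tested, 11.4% were higher and 7.25% lower in -/- arrays, and 14.0% and 10.7% in +/- arrays. Neto1, an auxiliary subunit of kainate receptors, was higher in BG -/- arrays (132 and 174) than in Ctx -/- arrays (30.5 and 33.2). It was also higher in BG in +/- arrays, by 1.27 (adjusted p = 0.00432, limma). Camk2a, a kinase of the postsynaptic density, had 216 and 200.3 in BG +/- against 25.4 and 22.1 in Ctx +/- arrays, a log2 difference of 2.50 ± 0.22 (SE, adjusted p = 0.000955, limma). In -/- arrays Camk2a was higher in BG by 1.15 (adjusted p = 0.0156, limma). Homer1, which tethers group I metabotropic receptors, was lower in BG in both genotypes, with log2 differences of -1.12 in -/- and -1.59 in +/- arrays. Lin7a, a relative of Lin7c, was higher in BG by 1.57 in -/- and 1.29 in +/- arrays. Dlg1, which encodes the scaffold SAP97, passed in both genotypes, with -1.09 in -/- and -1.11 in +/- arrays. Lrrtm2 differed by -0.92 in +/- arrays, and its -/- difference of -0.39 did not pass (adjusted p = 0.0514, limma).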

How the data were processed

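Total RNA of BG and Ctx was measured on 8 arrays, 2 in each group, grouped by the sample titles. The authors deposited a table of 45101 probe sets with linear intensity values, and the equal trimmed means show that arrays were scaled before deposit. The software that made the values is not given in the sources used here. Gene symbols came from the platform annotation: 34945 probe sets had 1 symbol, 932 had several and 9160 had none.

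After 64 control probe sets were removed, the 30% of probe sets with the lowest mean log2(value + 16) were left out. A mean for each of 4 groups was fitted over all 8 arrays with limma 3.58.1 in R 4.3.3 (lmFit, eBayes, two-sided, Benjamini-Hochberg over all 31526 probe sets kept, threshold 0.05). The 2 arrays per group limit the precision. The script was tested on simulated data.

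All 30 genes are named. Of the other synapse genes, at most 4 per comparison are named, those past the threshold with the smallest p. The members and lists were chosen with earlier results of these data known. Alternatives were other offsets, no filter, median centring, quantile normalization, the mean of a gene's probe sets, an intensity trend, the 2 groups alone, a replicate block and leaving out each array. Promoter sequences are RefSeq's (GRCm38.p6), searched with Python 3.11.15.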

Additional observations from a re-analysis of the deposited data

How the results depend on the processing

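Counts of glutamate genes past the threshold depended on the processing, while no direction of a called gene turned under any alternative. In BG, the 6 calls became 2 with no filter, 3 with each array centred on its median, 1 with the 2 BG groups compared alone (Slc17a6) and 2 with a replicate block (Slc17a6 and Grik3), and between 0 and 5 when 1 array was left out. Centring left 2 higher and 1 lower in place of 5 and 1, and the higher share of all called probe sets in BG was 68.5% when centred and 77.1% as reported. That share was 67.9% when centred and 90.1% as reported for the difference between genotype effects, 26.5% and 61.8% between regions in -/- arrays, and 31.6% and 46.4% between regions in +/- arrays. The median BG change of all probe sets was 0.01 as reported and -0.09 when centred. In -/- arrays the BG minus Ctx calls became 9 higher and 4 lower when centred, against 11 and 1, with that median at -0.21 in place of 0.08, and they ranged from 6 to 15 in all when 1 array was left out. The difference between genotype effects had 0 calls as reported, 2 with an offset of 64 (Gria4 and Grm5) and 4 with an intensity trend (Gria4, Grik3, Grm5 and Slc17a6). The cause of these changes was not tested. The replicate numbers did not pair the arrays (correlations of deviations between -0.0262 and 0.0218), and the block left 12 calls in +/- and 13 in -/- arrays between regions. Ctx had 0 calls under every alternative run. Weak probe sets, such as those of Slc17a7 and Grin3b, lie close to the filter's level, where 2 arrays per group measure a change poorly.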
